A study of Mus musculus with 12 samples.

Results

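Integrin alpha5-positive (A5-positive) and alpha5-negative (A5-negative) epithelial cells from skin wounds of RORγt-deficient mice were compared in 3 libraries each, which are 6 of the 12 libraries of the study. The 6 were taken by their titles, which carry GFP-KI, the A5 status and a number from 1 to 3. This number was taken here to pair each A5-positive library with an A5-negative one. The study asked how migrating and non-migrating epithelium of a wound edge differ, and whether the difference is altered in mice that lack RORγt, within a series on interleukin-17 (IL-17) and low oxygen. All mice had been wounded 3 days earlier, and a skin ring 0.25 mm wide was cut at the wound edge and digested, from 2 or 3 mice per pool. Each group had a pool in each sequencing run. Live cells carrying Epcam and integrin alpha6 were sorted, and cells carrying CD45, CD31 or CD117 were discarded. Integrin alpha5 then divided them into the A5-positive fraction, which the study called the migrating tongue, and the A5-negative fraction, which it called the wound edge. The other 6 libraries are the same 2 fractions of wild-type mice, 3 of each. The sources used here do not say how RORγt was inactivated, beyond the GFP-KI title, or what strain and age the mice were.

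After an injury, keratinocytes next to the gap loosen their anchorage to the basement membrane, make wound keratins such as keratin 6a, and crawl over the wound bed as a tongue of epithelium. Integrin alpha5, the partner of integrin beta1 in the fibronectin receptor, is scarce in resting epidermis and appears on these cells, while keratinocytes behind the tongue divide and those above it differentiate. RORγt is the transcription factor of lymphocytes that make IL-17, a cytokine to which keratinocytes respond with chemokines and antimicrobial proteins.

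The 6 libraries held 31656284 to 74563616 counts, of which mitochondrially encoded genes took 0.348% to 0.853%. Itga6 and Epcam, which the sort required, were at 672 to 1069 CPM (read counts scaled to library size with TMM factors) and 583 to 999.98 CPM, and neither passed the test between the fractions (0.06 ± 0.14, adjusted p = 0.805, and -0.17 ± 0.14, adjusted p = 0.433). Of the genes of the excluded surface proteins, Ptprc (CD45) was at 3.32 to 25.3, Pecam1 (CD31) at 0.889 to 4.32 and Kit (CD117) at 1.77 to 10.3 CPM, and none passed the test. All changes are given as log2 fold changes ± SE of A5-positive against A5-negative cells and are called at an edgeR quasi-likelihood adjusted p under 0.05 with the library number as a block, and levels are listed for libraries 1, 2 and 3 in turn (N1, N2 and N3 for A5-negative, P1, P2 and P3 for A5-positive cells). Where a call ends without the block, the adjusted p of that fit follows, and where it ends without single libraries, these and their p, or its range, are given.

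The 2 genes that name the fractions followed the sort. Itga5 (GRCm38 chr15:103344286-103366763) was at 54.0, 61.3 and 47.4 CPM in N1 to N3 against 107, 122 and 137 CPM in P1 to P3. Krt6a, the wound keratin (chr15:101689910-101694307), was at 231, 320 and 526 against 1328, 724 and 1206 CPM. Every A5-positive library lay above every A5-negative library for both genes. Itga5 rose by 1.17 ± 0.14 (adjusted p = 0.000335), and since its protein was sorted on, this checks the labels and is no finding. Krt6a rose by 1.59 ± 0.31 (adjusted p = 0.00685), and its reads may be shared with the near-identical Krt6b, which had a change of 1.71 ± 0.65 (adjusted p = 0.091). The A5-negative fraction also held RNA of both genes, so the fractions differed in its level. Bulk counts do not show which cells of a fraction carried it.

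**Figure D1:**
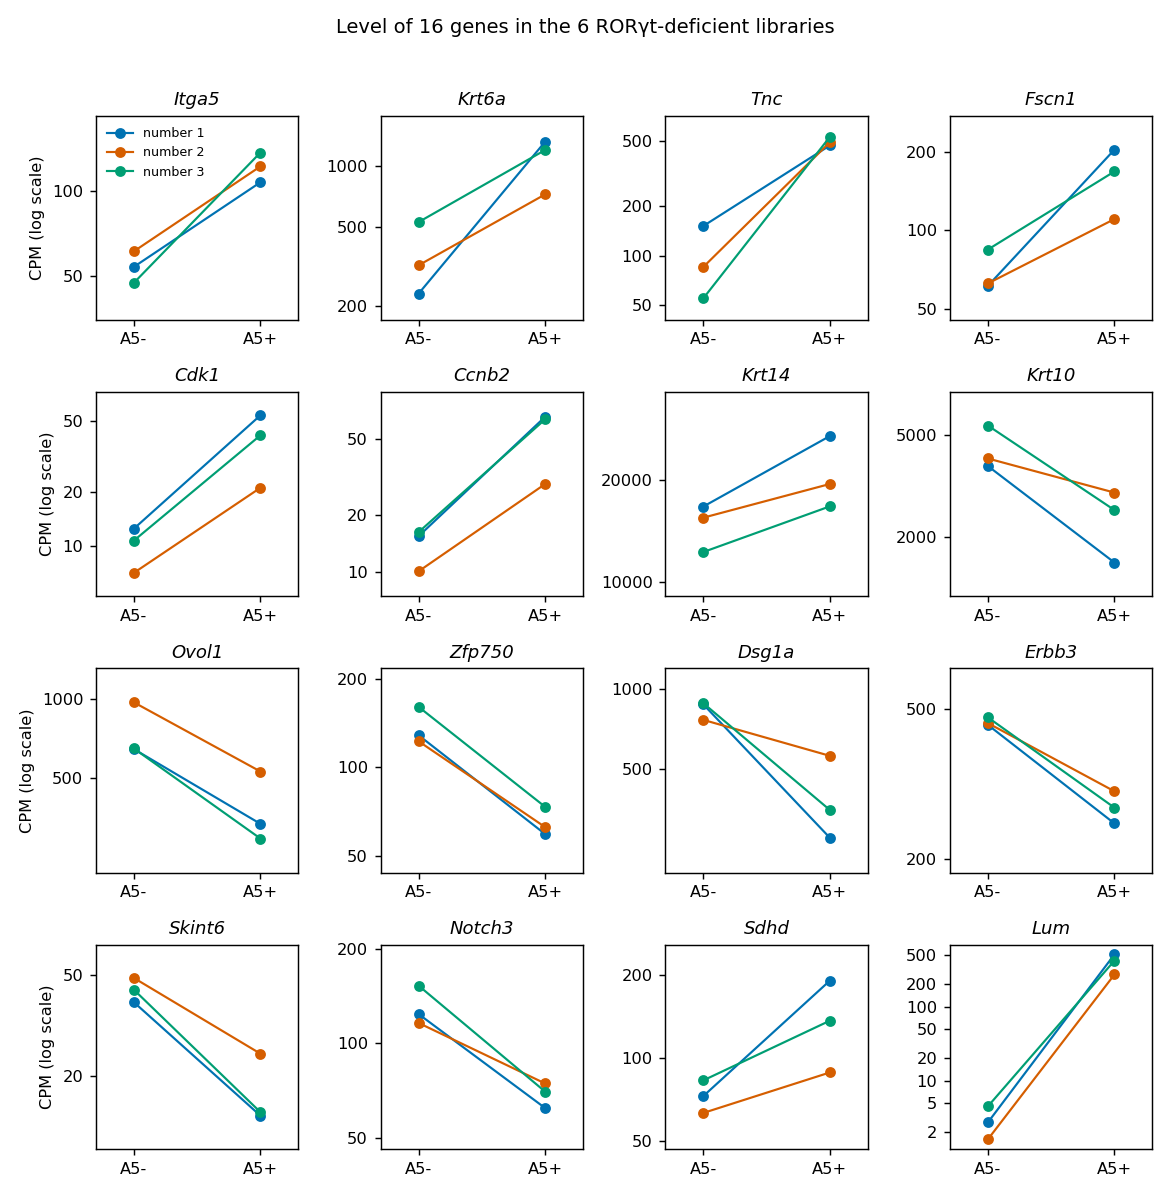
CPM on a log axis in the 3 A5-negative and 3 A5-positive libraries of RORγt-deficient mice for 16 genes, with a line joining the libraries of each number. Itga5, Krt6a, Tnc, Fscn1, Cdk1, Ccnb2, Krt14, Sdhd and Lum were higher in all 3 A5-positive libraries than in any A5-negative one, Krt14 and Sdhd narrowly. Krt10, Ovol1, Zfp750, Dsg1a, Erbb3, Skint6 and Notch3 were lower in all 3 A5-positive libraries than in any A5-negative one.

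Across all genes, A5-positive cells were higher for cell division, extracellular matrix and a set of wound-front genes, and lower for differentiation, cell-cell junctions and a few growth factor receptors. Of 16677 genes tested, 1679 rose (10.1%) and 1258 fell (7.54%). The counts of each list below are to be read against these shares. Without the block 760 rose (4.56%) and 161 fell (0.965%). Rises made up 57.2% of the calls, or 82.5% without the block, and they were larger than falls, with a median of 1.02 among the called rises and -0.59 among the called falls. More than 8-fold differences were called for 311 rises and 9 falls. The levels of the fractions did not overlap for 2381 genes with A5-positive cells above (14.3%) and 1881 with A5-positive cells below (11.3%). The counts of calls depended on single libraries, with 872 rises and 449 falls without N1, 863 and 563 without P1, and 770 and 303 without P3. In all 6 fits that each left out a library, 673 of the rises and 246 of the falls were kept.

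The 10 largest rises, taken among called genes whose log2 CPM averaged 3 or more and whose fractions do not overlap, were mostly matrix genes. Lum, which encodes the collagen-binding proteoglycan lumican (chr10:97565128-97572703), was at 2.72, 1.60 and 4.48 CPM in N1 to N3 against 509, 272 and 419 CPM in P1 to P3. Dcn, which encodes the related decorin (chr10:97479609-97518143), was at 8.36, 4.32 and 8.60 against 1233, 661 and 990 CPM. Eln, the elastin gene (chr5:134702593-134747323), was at 2.20, 0.773 and 0.698 against 193, 142 and 136 CPM. In each case the fractions did not overlap, and on a log scale the gap between them was far larger than the spread within either. The changes were 7.12 ± 0.50 (adjusted p = 1.61e-05), 7.09 ± 0.51 (2.06e-05) and 6.90 ± 0.52 (2.6e-05). The other 7 were the collagens Col3a1 (6.56 ± 0.79), Col6a2 (6.48 ± 0.57) and Col1a2 (6.21 ± 0.76), the collagen-cleaving protease Ctsk (6.68 ± 0.53), the protease inhibitor Serpina3n (6.38 ± 0.41), the carboxypeptidase relative Cpxm1 (6.33 ± 0.48) and the matrix proteoglycan Prelp (6.18 ± 0.40). Their adjusted p-values ran from 1.11e-05 (Serpina3n, Prelp) to 0.000452 (Col1a2).

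Lum and Dcn are also markers of fibroblasts, the matrix-producing cells of the dermis, and other such markers rose with them. All 17 fibroblast markers rose (14 without the block), with a median of 5.52 against -0.01 over all genes tested. Of the 17, 7 are also in the list of collagens and fibrillar matrix below, so the results of these lists share genes. Their summed level was 575, 104 and 158 CPM (of all counts) in N1 to N3 and 15927, 9938 and 16963 CPM in P1 to P3. Pdgfra, the growth factor receptor that defines fibroblasts (chr5:75152292-75198215), was at 1.59, 1.12 and 1.11 CPM against 49.5, 33.4 and 42.2 CPM and rose by 5.0 ± 0.31 (adjusted p = 8.75e-06). Dpt, which encodes dermatopontin (chr1:164796644-164824266), was at 0.244, 0.115 and 0.159 against 28, 17.9 and 16.4 CPM and rose by 6.87 ± 0.40 (adjusted p = 7.1e-06). No fibroblast marker was at 0 in all 6 libraries. The part of these cells in the matrix results and in the other rises that follow was not tested. In bulk RNA, more cells of a type and more RNA per cell cannot be told apart.

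Collagens, matrix proteases and mesenchymal regulators rose alongside. Of 30 genes of collagens and fibrillar matrix, 26 rose and none fell (18 rose without the block), with a median of 3.89. The fibroblast list holds 7 of the 30, and of the other 23, 19 rose, with a median of 3.56. Col1a1, the main fibrillar collagen chain (chr11:94936224-94953042), was at 203, 15.9 and 20.9 CPM in N1 to N3 against 4277, 2621 and 4431 CPM in P1 to P3, and rose by 6.01 ± 0.84 (adjusted p = 0.00105). Sparc, a matrix protein of mesenchymal and wound cells (chr11:55394500-55423183), was at 51.1, 33.2 and 12.9 against 788, 436 and 653 CPM and rose by 4.37 ± 0.41 (adjusted p = 8.72e-05). Neither gene overlapped between the fractions, and N1 was the highest of its group for both.

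Among 32 proteases of matrix and plasmin and their inhibitors, 13 rose and none fell (10 without the block), with a median of 0.47. Mmp2, the gelatinase of mesenchymal cells (chr8:92827291-92853420), was at 53.1, 45.3 and 59.6 CPM against 658, 383 and 562 CPM (3.34 ± 0.29, adjusted p = 5.37e-05). Mmp14, its membrane-bound activator, was at 207, 156 and 147 against 550, 421 and 560 CPM (1.59 ± 0.19, adjusted p = 0.000381). Timp2, the inhibitor that also docks Mmp2 on Mmp14, was nearly constant in A5-negative cells at 107, 102 and 102 CPM and reached 407, 263 and 368 CPM (1.73 ± 0.20, adjusted p = 0.000349). Mmp11, the stromelysin first known from stroma of tumours, went from 0.706, 0.601 and 0.571 to 58.0, 26.9 and 57.5 CPM (6.15 ± 0.44, adjusted p = 2.06e-05). Mmp9, the gelatinase of wound-edge keratinocytes and leukocytes (chr2:164940780-164955850), varied most, at 7.54, 2.09 and 1.68 CPM against 57.0, 39.1 and 328 CPM (4.70 ± 0.83, adjusted p = 0.00398). All 5 genes were higher in each A5-positive library than in any A5-negative one, and Mmp9 was several times higher in P3 than in the other A5-positive libraries.

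Of 22 basement membrane genes, 8 rose and none fell, with and without the block, with a median of 0.40. They included Lama2 and Lama4, laminin chains of muscle and of vessels and mesenchyme (4.82 ± 0.46, adjusted p = 0.0001, and 1.33 ± 0.15, adjusted p = 0.000265). Nid1, which links laminin to collagen IV, was at 11.3, 8.62 and 17.3 CPM against 48.5, 35.1 and 64.2 CPM (2.00 ± 0.24, adjusted p = 0.000381). Col4a1, a chain of that collagen, was at 68.1, 65.4 and 51.8 against 130, 129 and 154 CPM (1.16 ± 0.16, adjusted p = 0.000989). Of 21 regulators and markers of epithelial-to-mesenchymal transition, 9 rose and 1 fell (4 and 0 without the block), with a median of 0.71. The mesenchymal transcription factors Twist1 (5.05 ± 0.48, adjusted p = 9.67e-05), Twist2 (6.80 ± 0.69, adjusted p = 0.000134) and Prrx1 (4.75 ± 0.80, adjusted p = 0.00306), which fibroblasts also make, led this list, and none was above 1.48 CPM in any A5-negative library. The number of rises in that list was 4 without N2, N3 or P3, and 5 without P1. Tnc, the tenascin of wound matrix (chr4:63959785-64047015), was already at 151, 85.0 and 54.7 CPM in A5-negative cells and reached 469, 491 and 529 CPM (2.38 ± 0.38, adjusted p = 0.00233). Ltbp1, which holds latent TGF-beta in the matrix, was nearly constant within each fraction, at 33.7, 36.3 and 33.5 CPM against 181, 139 and 175 CPM (2.26 ± 0.13, adjusted p = 5.6e-06).

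**Figure D2:**
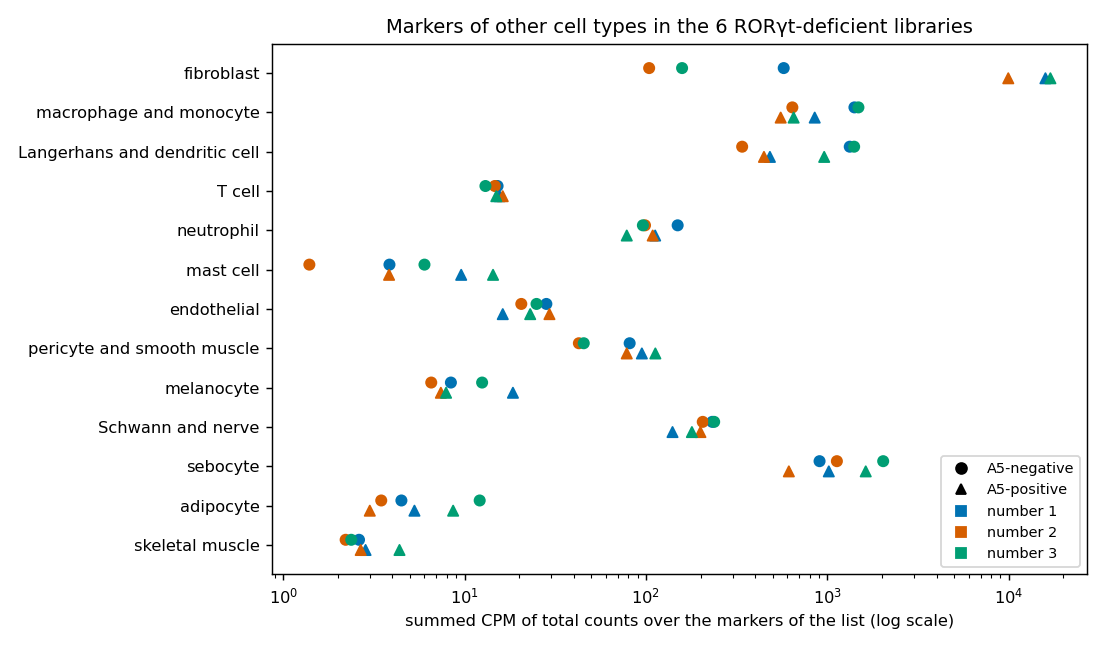
Summed CPM of the markers of other cell types, on a log axis, in each of the 6 libraries. The fibroblast sum was 104 to 575 CPM in A5-negative and 9938 to 16963 CPM in A5-positive libraries, while the sums of macrophage and of Langerhans and dendritic cell markers were lower in A5-positive than in A5-negative libraries of numbers 1 and 3.

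Changes of leukocyte markers were mostly below 0 and, with few exceptions, did not pass the threshold. The summed level of 19 macrophage and monocyte markers was 1410, 641 and 1483 CPM in N1 to N3 against 852, 553 and 652 CPM in P1 to P3. All 19 changes were below 0, with a median of -1.26, and 1 of them passed the threshold (none without the block). The 18 that did not pass summed to 674, 105 and 688 against 261, 100 and 165 CPM. No macrophage marker fell without N1, N3 or P3, while 9 fell when the 6 libraries were fitted alone and 15 without the filter on low counts. None of 14 Langerhans and dendritic cell markers passed, with a median of -0.59 and sums of 1328, 339 and 1405 against 482, 447 and 960 CPM. In N2 both sums were well below those of the other A5-negative libraries. Lck was the T cell marker called, from 0.733, 0.601 and 0.540 to 3.73, 1.43 and 4.29 CPM (2.27 ± 0.38, adjusted p = 0.00287), while Il17a and Il22 had no counts in any of the 6 libraries and the summed T cell markers were at 13 to 16.2 CPM in both fractions. None of the tested neutrophil (6), mast cell (2), melanocyte (4) and adipocyte (3) markers passed, and the defining markers Ly6g (neutrophils) and Fcer1a (mast cells) had no counts. Single markers rose among those of endothelium (1 of 12), pericytes and smooth muscle (1 of 9), Schwann cells (1 of 4, with 2 lower) and skeletal muscle (1 of 5), and 2 of 13 sebocyte markers fell, none of them without the block. All 9 changes of pericyte and smooth muscle markers were above 0, with a median of 2.81 and sums of 81.3, 42.7 and 45.4 against 94.9, 78.4 and 113 CPM. Of these 9, 4 rose with DESeq2, with the block of 6 pairs or without P1, 3 with the 6 libraries alone and 7 without the filter, and none without N3, P2 or P3. Their part in the matrix results was not tested.

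Most cell division genes rose. Of 40 genes of G2/M, the spindle and cytokinesis, 38 rose, 37 of them also without the block, and 37 or 38 rose whichever library was left out. All 40 changes were above 0, with a median of 1.59, and the medians were 1.38, 1.42 and 1.70 in the pairs numbered 1, 2 and 3. The exceptions were the spindle checkpoint kinase Ttk (0.10 ± 0.17, adjusted p = 0.742) and the securin gene Pttg1 (0.25 ± 0.16, adjusted p = 0.31). Of 35 genes of DNA replication and the G1/S transition, 27 rose and none fell (21 without the block, 20 to 29 without single libraries), with a median of 0.99.

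Cdk1, the kinase that starts mitosis (chr10:69335146-69352938), was at 12.5, 7.10 and 10.8 CPM in N1 to N3 against 54.1, 21.3 and 41.8 CPM in P1 to P3. Ccnb2, a cyclin that activates it (chr9:70407692-70421547), was at 15.4, 10.1 and 16.2 against 65.3, 29 and 63.3 CPM. Ube2c, the ubiquitin-conjugating enzyme of the anaphase-promoting complex, was at 13.6, 7.88 and 11.1 against 74.0, 23.3 and 63.0 CPM. Libraries of number 2 were the lowest of both fractions for all 3 genes, and the fractions did not overlap. The changes were 1.90 ± 0.16 (adjusted p = 4.61e-05), 1.87 ± 0.17 (7.35e-05) and 2.20 ± 0.20 (7.89e-05). Others with small p were Birc5, the survivin of the chromosomal passenger complex (2.12 ± 0.19, adjusted p = 6.86e-05), and Cdc25c, the phosphatase that activates Cdk1 (1.87 ± 0.17, adjusted p = 6.12e-05). In S phase, Ccna2, a cyclin of S phase and mitosis, went from 23.1, 11.7 and 22.2 to 78.1, 38.9 and 77.6 CPM (1.77 ± 0.18, adjusted p = 0.000131), and Mcm3, a subunit of the replicative helicase, from 49.0, 38.8 and 51.6 to 112, 85.4 and 127 CPM (1.22 ± 0.17, adjusted p = 0.00115). Tyms, the thymidylate synthase (1.23 ± 0.14, adjusted p = 0.000299), and Lig1, the ligase of lagging strands (1.28 ± 0.17, adjusted p = 0.000657), rose as well.

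Genes of late cell cycle phases are known for promoters that carry a cell cycle homology region, here searched as TTTGAA, and CCAAT boxes, to which the DREAM repressor complex and the activator NF-Y bind. Both motifs were searched on both strands of the 250 bases before each start site in the RefSeq promoter table (GRCm38.p6), which held 34 of the 40 G2/M genes. CCAAT was in 24 of these promoters (70.6%) against 34.5% of all 27025, TTTGAA was in 9 (26.5%) against 16.3%, and both were in 8 (23.5%) against 5.73%. TGANTCA, the AP-1 site, was in 0 of the 34 and in 6.87% of all. For the replication and wound-front lists too few members were in the table (27 of 35 and 25 of 39) for such a comparison. Shown are the 3 called G2/M genes with the smallest p that hold both motifs, because they carry the division signal. Genes of a chromosome that was set aside were left out of this choice. Each match is in capitals in either orientation (TTCAAA and ATTGG on the reverse strand). A match is a run of letters and says nothing of binding. The stretches are chr10:69352913-69353162 on the minus strand for Cdk1, chr9:70421555-70421804 on the minus strand for Ccnb2 and chr2:164769679-164769928 on the plus strand for Ube2c, each written 5′ to 3′ towards the start site.
Cdk1: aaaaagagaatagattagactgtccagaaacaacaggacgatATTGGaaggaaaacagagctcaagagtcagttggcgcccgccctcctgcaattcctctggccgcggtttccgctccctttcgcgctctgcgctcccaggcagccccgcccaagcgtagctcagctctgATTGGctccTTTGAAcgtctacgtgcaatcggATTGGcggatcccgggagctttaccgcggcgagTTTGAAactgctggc
Ccnb2: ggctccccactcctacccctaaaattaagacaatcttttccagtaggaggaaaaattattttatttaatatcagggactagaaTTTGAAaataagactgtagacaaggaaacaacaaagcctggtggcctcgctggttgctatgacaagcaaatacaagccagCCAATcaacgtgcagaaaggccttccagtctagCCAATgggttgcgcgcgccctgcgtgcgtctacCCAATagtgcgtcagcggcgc
Ube2c: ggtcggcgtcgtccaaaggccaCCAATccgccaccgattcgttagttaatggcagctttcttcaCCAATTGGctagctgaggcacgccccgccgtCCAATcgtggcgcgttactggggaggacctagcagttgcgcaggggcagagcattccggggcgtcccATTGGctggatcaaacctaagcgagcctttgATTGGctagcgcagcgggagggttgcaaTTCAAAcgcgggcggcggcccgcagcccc
In Cdk1 the TTTGAA matches begin 71 and 15 bases before the start site, in Ccnb2 the match begins 167 bases before it and in Ube2c 29 bases before it. CCAAT is present 3 times in Cdk1, 3 times in Ccnb2 and 6 times in Ube2c, where a forward and a reverse match overlap.

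**Figure D3:**
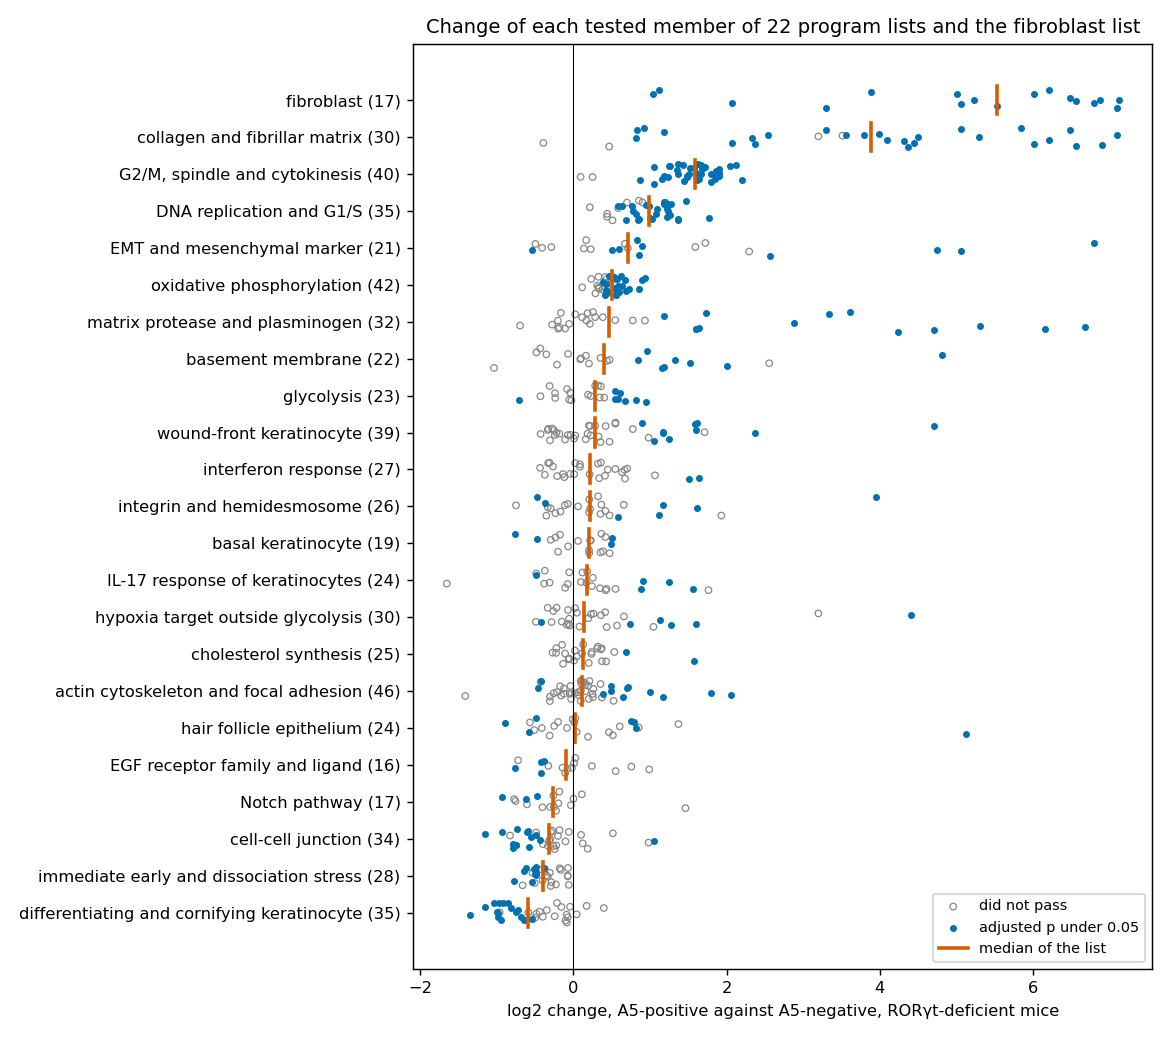
Log2 changes of the tested members of each gene list (points, with called members filled) and the list median (bar). All 40 G2/M changes lie above 0 with a median of 1.59 and all 28 immediate early changes below 0 with a median of -0.39.

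Genes that mark wound-front keratinocytes were higher in part. Of 39 members, 10 rose and none fell (6 without the block), with a median of 0.28, and 27 of the 39 changes were above 0. The rises included Itga5, whose protein was sorted on, so that its place in these counts is no finding. Krt6a, Tnc, Mmp9 and Fscn1 were among them too. Fscn1, which bundles actin in filopodia (chr5:142960343-142973185), went from 61.3, 62.5 and 84.4 to 204, 110 and 168 CPM (1.18 ± 0.25, adjusted p = 0.00961), and its call ended without N1 (0.0619) or P3 (0.0582). The 4 that passed with the block alone were Inhba, Stfa1, Slpi and Gjb6 (adjusted p = 0.0211, 0.0225, 0.0263 and 0.0463, and 0.110, 0.0778, 0.117 and 0.147 without it). The Inhba call ended without each library but P1 (0.0624 to 0.108) and the Gjb6 call without each but N3 (0.0608 to 0.216). The calls of Stfa1 (0.0501 to 0.116) and Slpi (0.0563 to 0.158) ended without N1, N2, P1 or P3. The list had 5 rises without N1 or P3 and 6 without N2. Krt16, the usual partner of keratin 6, was at 511, 748 and 916 CPM in N1 to N3 against 1015, 900 and 787 CPM in P1 to P3. The fractions overlapped for Krt16, and its change was 0.33 ± 0.22 (adjusted p = 0.334).

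Basal keratinocyte genes hardly separated the fractions. Of 19, 2 rose and 2 fell (none without the block), with a median of 0.21, against 10.1% and 7.54% of all genes tested. The 2 rises became 1 without N1, N2, P1 or P3, and no member fell without N1, N3, P1 or P3. Krt14, the basal keratin (chr11:100203162-100207548), was at 16684, 15471 and 12245 CPM against 26959, 19458 and 16709 CPM and rose by 0.49 ± 0.13 (adjusted p = 0.0242, and 0.249 without the block). Its lowest A5-positive library lay just above the highest A5-negative one, and the call ended without N1 (0.105) or N2 (0.0559) or P1 (0.121) or P3 (0.0935). Krt5, its partner, was at 14993, 12540 and 9302 against 19948, 14283 and 13549 CPM (0.39 ± 0.12, adjusted p = 0.0546). Cav1, which coats caveolae, rose by 0.50 ± 0.10 (adjusted p = 0.00779, and 0.0519 without the block).

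Differentiation genes were lower in A5-positive cells. Of 35 genes of differentiating and cornifying keratinocytes, 17 fell and none rose, with a median of -0.59, and 32 of the 35 changes were below 0. Without the block 2 fell, and with it 7 fell without P3, 10 and 11 without N1 and N2, and 12 to 14 without each other library. The pair medians were -0.44, -0.46 and -0.68. The falls included transcription factors of the upper layers. Grhl3, which drives barrier formation (chr4:135541888-135573630), was at 272, 486 and 438 CPM in N1 to N3 against 141, 223 and 249 CPM in P1 to P3 (-0.96 ± 0.14, adjusted p = 0.00121, and 0.145 without the block). Its relative Grhl1, which activates desmosomal genes, was at 187, 230 and 237 against 103, 146 and 115 CPM (-0.85 ± 0.11, adjusted p = 0.000717). Ovol1, which restrains proliferation as cells leave the basal layer (chr19:5549136-5560646), was at 645, 975 and 649 against 333, 529 and 293 CPM (-0.98 ± 0.19, adjusted p = 0.00637, and 0.0921 without the block). For all 3 factors each A5-positive library was below each A5-negative one. Zfp750, a differentiation factor that was not in the list and is among the 10 largest falls of highly expressed genes, went from 129, 123 and 160 to 59.5, 62.8 and 73.5 CPM (-1.07 ± 0.12, adjusted p = 0.000225).

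Krt10, the keratin of suprabasal cells, went from 3773, 4038 and 5420 to 1593, 2977 and 2546 CPM (-0.92 ± 0.22, adjusted p = 0.0162, and 0.203 without the block). This call ended without N1 (0.0895) or P1 (0.0719) or P3 (0.0879). Abca12, the lipid transporter of lamellar granules, was at 193, 355 and 265 against 73.7, 231 and 137 CPM, which overlap, and was lower in each pair (-0.98 ± 0.13, adjusted p = 0.000912, and 0.255 without the block). Ivl, the cornified envelope protein involucrin, had -0.69 ± 0.19 (adjusted p = 0.0341, and 0.34 without the block). The Ivl call ended without N1 (0.0672) or N2 (0.0913) or P1 (0.0516), P2 (0.0676) or P3 (0.0519). Krt79, a keratin of hair follicle ducts, went from 5002, 6595 and 8654 to 2796, 2894 and 5537 CPM (-0.89 ± 0.18, adjusted p = 0.0076, and 0.215 without the block).

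Junction genes fell with them. Of 34 genes of desmosomes and of adherens, tight and gap junctions, 13 fell and 1 rose (1 and 0 without the block), with a median of -0.32. Without P3, 4 fell, and 7 fell without N1 or P1 or with voom. Dsp, which ties desmosomes to keratin filaments (chr13:38151294-38198577), was at 1369, 1222 and 1557 CPM against 735, 944 and 824 CPM (-0.74 ± 0.14, adjusted p = 0.00658). Dsg1a, a desmosomal cadherin of upper layers, was at 877, 767 and 886 against 278, 562 and 353 CPM (-1.16 ± 0.22, adjusted p = 0.00554, and 0.0519 without the block). Nectin4, an adhesion receptor that joins adherens junctions, was at 88.9, 121 and 142 against 54.8, 72 and 74.5 CPM (-0.79 ± 0.10, adjusted p = 0.000454, and 0.0634 without the block). None of these 3 overlapped between the fractions. Cdh1, the classical cadherin of epithelia, was at 3370, 4294 and 3066 against 1780, 3435 and 2298 CPM, which overlap, and fell by 0.56 on the log2 scale (SE 0.13, adjusted p = 0.018, and 0.271 without the block). Its call ended without N1 (0.0605) or P1 (0.0868) or P3 (0.0864).

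The 10 largest falls, taken in the same way, included 3 of the Skint family, butyrophilin-like genes of epidermis and thymus of which Skint1 selects epidermal γδ T cells. Skint6 (chr4:112804616-113286973) was at 39.1, 48.7 and 43.8 CPM against 14.0, 24.6 and 14.5 CPM (-1.34 ± 0.24, adjusted p = 0.00473). Skint5 changed by -1.28 ± 0.26 (adjusted p = 0.00779, and 0.126 without the block) and lost its call without P3 (0.0532). Skint7 had -1.33 ± 0.41 (adjusted p = 0.0445, and 0.117 without the block) and lost its call without any one of the 6 libraries (0.0602 to 0.217). Reads may be shared among these near-identical genes, so their single values are uncertain. The largest fall was that of Nfatc2, a calcium-regulated transcription factor (chr2:168476410-168601657), from 19.3, 21.9 and 30.4 to 5.67, 7.70 and 9.33 CPM (-1.67 ± 0.20, adjusted p = 0.000352). Exph5, a Rab27 effector of keratinocytes, went from 88.2, 58.7 and 61.3 to 19.6, 43.8 and 21.1 CPM (-1.37 ± 0.26, adjusted p = 0.00598). Ccr4, a chemokine receptor best known from T cells, was at 15.3, 21.5 and 20.3 against 5.21, 10.4 and 8.0 CPM (-1.33 ± 0.24, adjusted p = 0.00482, and 0.0898 without the block). Among highly expressed genes, Sort1, the sorting receptor sortilin, went from 99.0, 86.5 and 125 to 47.6, 43.6 and 53.1 CPM (-1.09 ± 0.17, adjusted p = 0.00168), and Acsl1, which activates fatty acids, from 182, 196 and 209 to 86.4, 120 and 87.0 CPM (-1.0 ± 0.14, adjusted p = 0.000859). The fractions did not overlap for these genes, which the choice of the largest falls required.

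A few receptors of the EGF and Notch families were lower as well, beside 7.54% of all genes tested that fell with the block. Of 16 EGF receptor family and ligand genes, 4 fell and none rose (1 without the block), with a median of -0.09, and of 17 Notch pathway genes 3 fell and none rose (1 without the block), with a median of -0.26. The EGF list had 1 fall without N1 and 2 without N3, P1 or P3, and the Notch list had 1 without P1. Erbb3, the neuregulin receptor (chr10:128567523-128589652), was almost constant in A5-negative cells at 454, 459 and 475 CPM and was at 248, 302 and 274 CPM in A5-positive cells (-0.76 ± 0.11, adjusted p = 0.00136). Notch3 (chr17:32120820-32166852) was at 124, 116 and 153 against 62.2, 74.4 and 70.1 CPM (-0.92 ± 0.14, adjusted p = 0.00142). Both were separated by more than the spread within either fraction and kept their calls without each library. Erbb2, the partner of Erbb3, went from 239, 221 and 262 to 184, 179 and 176 CPM (-0.42 ± 0.11, adjusted p = 0.0223, and 0.0674 without the block), a call that ended without N1 (0.0663) or N3 (0.0679) or P3 (0.118). Notch1, the receptor that drives the exit from the basal layer, had -0.62 ± 0.16 (adjusted p = 0.022, and 0.106 without the block) and lost the call without N1 (0.0749) or P1 (0.0905) or P3 (0.0794). Egfr, the EGF receptor itself, had -0.39 ± 0.12 (adjusted p = 0.0457, and 0.431 without the block), with overlapping fractions. The other calls of these lists were the ligand gene Tgfa (-0.42 ± 0.12, adjusted p = 0.0335, and 0.408 without the block), which ended without N1, P1 or P3 (0.101 to 0.134), and Numb, an inhibitor of Notch (-0.47 ± 0.11, adjusted p = 0.0172, and 0.241 without the block), which ended without P1 (0.0661). The Egfr call ended without N1 (0.156) or N3 (0.0726) or P1 (0.159) or P3 (0.173).

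Of 24 genes of hair follicle epithelium, 4 rose and 3 fell (1 and 0 without the block), with a median of 0.02. Over all genes tested, 10.1% rose and 7.54% fell with the block. The leading rise was that of Cd34, a follicle stem cell marker that fibroblasts and vessels also carry, from 2.27, 1.0 and 1.11 to 59.7, 32.7 and 56.0 CPM (5.12 ± 0.43, adjusted p = 4.63e-05). Gata3, a transcription factor of the inner root sheath and of epidermis, went from 449, 443 and 383 to 298, 338 and 224 CPM (-0.58 ± 0.11, adjusted p = 0.00673, and 0.0831 without the block). The list had 1 rise without N1, P1 or P3, and 2 without N2 or N3.

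Cytoskeletal and adhesion genes moved less than matrix genes. Of 46 genes of the actin cytoskeleton and focal adhesions, 10 rose and 2 fell (4 and 0 without the block), with a median of 0.11. Of 26 integrin and hemidesmosome genes 5 rose and 2 fell (3 and 0), with a median of 0.21. The integrin rises include, with and without the block, Itga5, whose protein was sorted on. Beside both lists, 10.1% of all genes tested rose and 7.54% fell with the block. Rhoc, a GTPase of cell motility, went from 1.85, 0.888 and 2.09 to 8.56, 5.60 and 5.91 CPM (2.06 ± 0.34, adjusted p = 0.00269). Pdlim7, an adaptor of actin bundles and focal adhesions, went from 35.4, 44.5 and 34.7 to 61.3, 52.8 and 63.2 CPM (0.64 ± 0.13, adjusted p = 0.00668). Neither gene overlapped between the fractions, and both kept their calls without each library. Itga11, the collagen-binding integrin known from fibroblasts, went from 0.407, 0.573 and 0.635 to 9.41, 8.16 and 7.27 CPM (3.95 ± 0.59, adjusted p = 0.0016). Ezr, which anchors actin to the membrane of epithelia, fell by 0.47 on the log2 scale (SE 0.10, adjusted p = 0.0119, and 0.201 without the block), and this ended without P3 (0.0748). The rises in actin genes numbered 3, 6 and 5 without N1, N3 or P1, and 2 without P3, and 6 with voom. Integrin rises numbered 2 without N2, N3, P1 or P3, and 3 without either other library.

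Genes of glycolysis and of the hypoxia response, the subject of the series, had small median changes, and their calls depended on the fit. Of 23 glycolysis genes, 7 rose and 1 fell with the block and none without it (3 rose with voom), with a median of 0.28. Over all genes tested, 10.1% rose and 7.54% fell with the block. The fractions did not overlap for 10 of the 23 with A5-positive cells above and for 3 with them below. Over all genes this held for 14.3% and 11.3%. Gapdh, the dehydrogenase of the pathway (chr6:125161715-125166467), was at 291, 256 and 340 CPM in N1 to N3 against 733, 344 and 555 CPM in P1 to P3 (0.81 ± 0.18, adjusted p = 0.012, and 0.104 without the block). P1 was the highest, and P2 lay just above N3. Its call ended without N1 (0.0547) or P1 (0.0607) or P3 (0.0654). Eno1, which encodes enolase, went from 394, 438 and 477 to 773, 542 and 669 CPM (0.58 ± 0.15, adjusted p = 0.0269, and 0.0835 without the block), and lost the call without N1 (0.119) or P1 (0.111) or P3 (0.109). Slc16a3, which exports lactate, went from 54.8, 44.4 and 36.5 to 94.8, 67.9 and 93.2 CPM (0.95 ± 0.23, adjusted p = 0.0175, and 0.171 without the block), and lost it without N1 (0.0979) or N3 (0.0551) or P3 (0.0875). No glycolysis gene rose without N1 or P3, while 1 rose without P1 and 3 rose without N3. Slc2a1, the glucose transporter GLUT1, was at 572, 505 and 530 against 717, 491 and 692 CPM, which overlap (0.23 ± 0.18, adjusted p = 0.421).

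Of 30 hypoxia targets outside glycolysis, 5 rose and 1 fell (3 and 0 without the block), with a median of 0.14, and 3 rose without N2 or P3. The shares over all genes tested were 10.1% and 7.54% with the block. Stc1, a secreted glycoprotein induced by low oxygen, went from 0.828, 0.516 and 0.540 to 25.1, 8.22 and 9.36 CPM (4.41 ± 0.49, adjusted p = 0.000258). Plod1, a lysyl hydroxylase of collagen, went from 35.1, 40.9 and 22.2 to 61.8, 70.4 and 73.5 CPM (1.13 ± 0.19, adjusted p = 0.00352). Hif1a, the oxygen-regulated transcription factor, was at 380 to 422 CPM in A5-negative and 374 to 452 CPM in A5-positive libraries (0.05 ± 0.14, adjusted p = 0.846).

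All 42 oxidative phosphorylation genes had changes above 0 (median 0.51), and 22 rose with the block but none without it. With the block, 4 rose when the 6 libraries were fitted alone, 8 with voom and 36 with DESeq2. The size differed between the pairs, with medians of 1.05, 0.14 and 0.36 in the pairs numbered 1, 2 and 3. Sdhd, a subunit of succinate dehydrogenase (chr9:50596357-50603812), was at 72.6, 63.1 and 82.7 CPM against 190, 88.4 and 136 CPM (0.86 ± 0.17, adjusted p = 0.00713, and 0.0903 without the block). Ndufv2, a subunit of complex I, was at 36.7, 28.9 and 43.0 against 86.2, 39.5 and 62.3 CPM, which overlap (0.73 ± 0.15, adjusted p = 0.00779, and 0.165 without the block). The number of rises was 5 and 10 without N1 and N3, and 2 and 4 without P1 and P3. Transcript length moved in the same way as these genes. Among 8719 genes at 10 CPM or more, the median change was 0.35 for 409 genes with under 1.5 kb of exons. Of these 26.7% rose and 2.69% fell. The median was -0.18 for 3140 genes with 6 kb or more, of which 6.08% rose and 19.3% fell. Of 3492 genes from 3 to 6 kb, 11% rose and 11.6% fell. In pair 1 these medians were 0.79 and -0.31, and in pair 2 0.09 and -0.07. The oxidative phosphorylation genes had a median of 2.1 kb, and the part of length in their result was not tested. Among lists with falls, the medians were 5.03 kb for junction, 4.79 kb for EGF, 4.59 kb for Notch and 2.61 kb for differentiation genes. The G2/M genes, which rose, had 4.92 kb. The part of length in these results was not tested either.

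**Figure D4:**
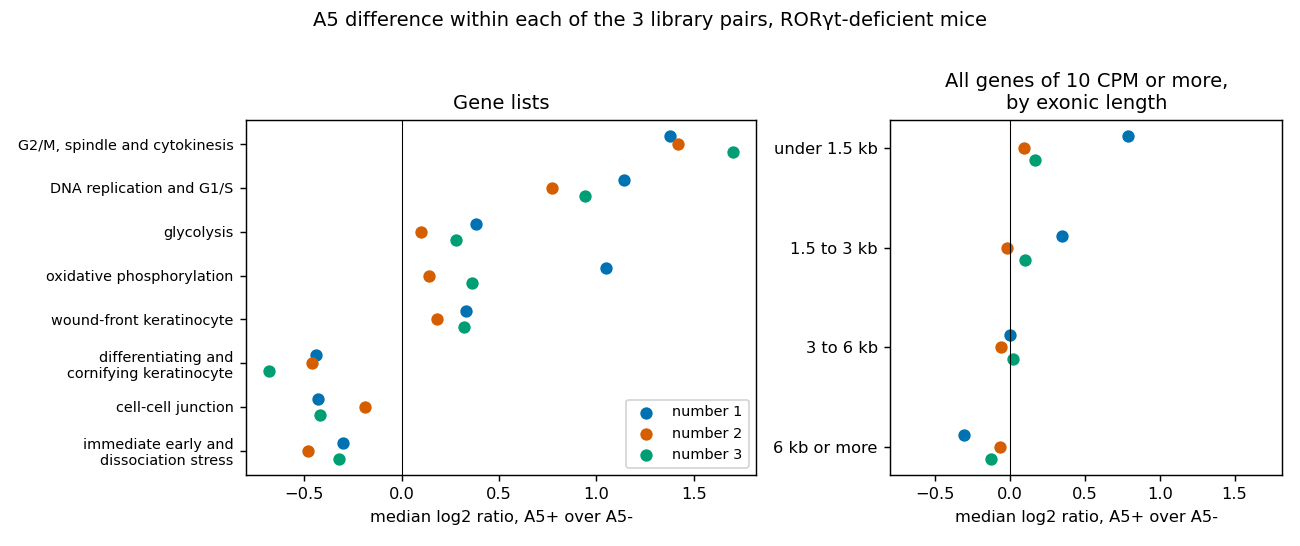
Median log2 difference (A5-positive minus A5-negative) of gene lists in each numbered pair, and of genes grouped by exonic length. The G2/M medians were 1.38, 1.42 and 1.70, while those of oxidative phosphorylation were 1.05, 0.14 and 0.36 and those of genes under 1.5 kb were 0.79, 0.09 and 0.17.

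Cytokine-linked genes changed in small numbers, beside 10.1% of all genes tested that rose and 7.54% that fell with the block. Of 24 tested genes of the keratinocyte response to IL-17, 4 rose and 1 fell (none without the block), with a median of 0.18, and the rises were 2 without N2 and 1 without P1 or P3. Il24, a cytokine of the IL-20 family made by wound keratinocytes (chr1:130882074-130887454), went from 9.99, 17.8 and 20.7 to 25.6, 25.9 and 36.4 CPM (0.88 ± 0.19, adjusted p = 0.0105, and 0.0876 without the block), and kept the call without each library. Cxcl1, a neutrophil chemokine, was at 87.5, 65.0 and 113 against 165, 111 and 224 CPM, which overlap (0.90 ± 0.20, adjusted p = 0.0117, and 0.082 without the block), a call that ended without P1 (0.0705) or P3 (0.0677). Of 27 interferon response genes 2 rose (none without the block), the near-identical Ifit3 and Ifit3b, whose reads may be shared. The Ifit3 call ended without any one library (0.0502 to 0.195), and the Ifit3b call without N1, N2 or P1 (0.0571 to 0.11). Of 25 cholesterol synthesis genes 2 rose (none without the block), with a median of 0.13, and none rose without P1 or P3.

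Immediate early genes, which wounding and tissue digestion both induce, were lower in A5-positive cells. All 28 changes were below 0, with a median of -0.39, and 10 fell with the block and none without it (2 with voom and 19 with DESeq2). The 3 pair medians were -0.30, -0.48 and -0.32. Atf3, a stress-induced repressor (chr1:191170296-191218039), was at 2628, 2900 and 1900 CPM against 1577, 1804 and 989 CPM (-0.78 ± 0.20, adjusted p = 0.0241, and 0.107 without the block). Egr2, a growth-factor-induced transcription factor, was at 456, 471 and 540 against 285, 264 and 440 CPM (-0.61 ± 0.14, adjusted p = 0.0142, and 0.258 without the block). Both were lower in every A5-positive library than in any A5-negative one. The Atf3 call ended without N1 (0.123) or N2 (0.0518) or P3 (0.113), and the Egr2 call without N1 (0.0613) or P3 (0.0541). No member of the list fell without N1 or P3, 1 fell without N2 and 4 without P2.

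The same contrast in wild-type mice gave 1461 rises (8.76%) and 933 falls (5.59%) with the block. Of the 1679 rises in RORγt-deficient mice 980 were also called in wild-type mice, which is 58.4% of the one and 67.1% of the other list, and of the 1258 falls 561 were (44.6% and 60.1%). A single gene, Tnfsf10, was called in opposite directions (-1.44 ± 0.36, adjusted p = 0.0214, in RORγt-deficient and 1.3 ± 0.36, adjusted p = 0.0357, in wild-type mice), and the genotype difference had an adjusted p of 0.769. The Tnfsf10 call in RORγt-deficient mice ended without the block (0.123) and without N1, N3, P1 or P3 (0.069 to 0.0877). Cdk1 changed by 1.54 ± 0.16 in wild-type mice, Krt6a by 1.94 ± 0.31, Grhl3 by -0.96 ± 0.14 and Skint6 by -1.64 ± 0.25. The test of the difference between the genotypes found no gene at an adjusted p under 0.05 (lowest 0.519), while 910 genes (5.46%) were under an unadjusted p of 0.05. DESeq2 called 25 genes. Krt16 was called in wild-type mice (1.10 ± 0.23, adjusted p = 0.0114) and not in RORγt-deficient mice, but the difference of -0.78 ± 0.31 had an adjusted p of 0.914. The same holds for Slc2a1, with 0.81 ± 0.18 (adjusted p = 0.0181) in wild-type mice and a difference of -0.58 ± 0.26 (adjusted p = 0.914).

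**Figure D5:**
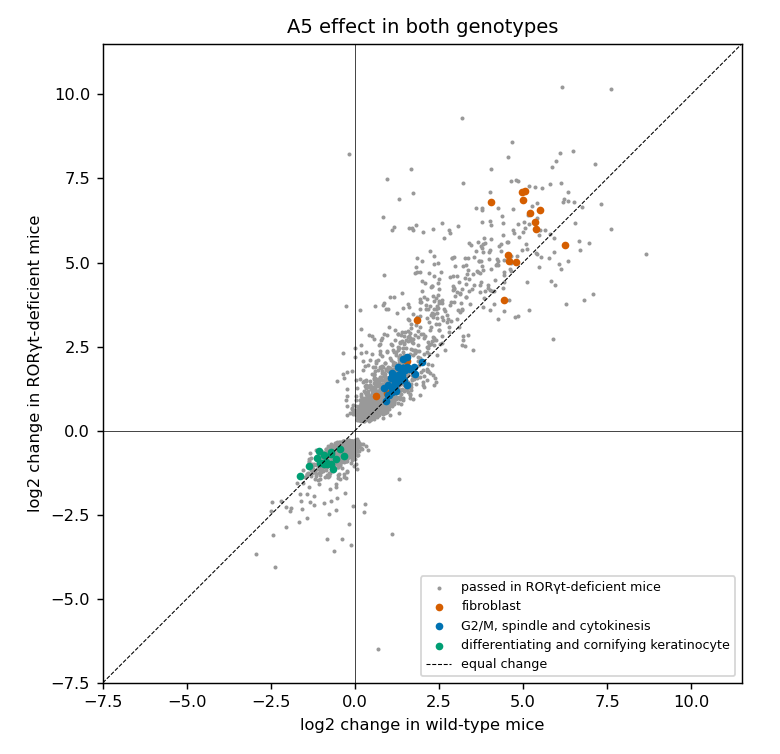
Change in RORγt-deficient mice (vertical axis) against change in wild-type mice (horizontal axis), both log2, for genes called in RORγt-deficient mice, with called members of 3 gene lists coloured. Of 1679 rises 980, and of 1258 falls 561, were also called in wild-type mice, and genes chosen by a call on the vertical axis tend to be more extreme on it.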

How the data were processed

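Total RNA of sorted cells was sequenced in 12 libraries (4 groups of 3) made with SMART-Seq v4 and ThruPLEX, per the labels' protocols. The authors deposited raw read counts per gene symbol, whole numbers with no normalization. Build mm10 (GRCm38) and the tools STAR, featureCounts, Trimmomatic 0.36 and bcl2fastq are named in the submitters' processing notes. The sources used here give no annotation release, strand setting or rule for reads with several matches, so paralogs and overlapping genes can share reads. Of 55341 rows, 26 with symbols turned into dates were left out, and the other 55315 matched GENCODE M21, the source of positions.

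Counts were tested with edgeR 4.0.16 in R 4.3.3 (TMM, filterByExpr by group, 16677 genes, quasi-likelihood F test, 2-sided) in 1 model of 4 groups over all 12 libraries with the library number as a block. Benjamini-Hochberg adjustment ran over all genes within each of 3 comparisons, at 0.05. The SE is the absolute change over the square root of F. Pools of 2 or 3 mice are the replicates. With the block, p-values measure the spread between pools that is left after shifts shared by a library number. This spread was estimated over all 12 libraries, wild type included. After group means, residuals of all 18 same-number pairs correlated above 0.1 (0.137 to 0.735, median 0.446, over 8730 genes). The 36 other pairs had -0.632 to 0.328 (median -0.22). Among RORγt-deficient libraries the ranges were 0.201 to 0.619 (3 pairs) and -0.604 to 0.328 (6 pairs), which overlap. Deviations from a group mean cancel within the group, which lowers the values of the other pairs. The number was taken to pair the libraries. No 2 libraries of a group agreed within counting error. The fit was tested on simulated counts.

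Named genes were the sort markers, the 10 largest rises and falls among called genes (mean log2 CPM of at least 3, groups not overlapping), the same among genes of at least 32 CPM, the 4 members of each of 35 lists with the smallest p, and 5 by the genotype difference. A few genes of these sets are not reported here. Others were chosen after their values were seen. The members and lists were chosen with earlier results of these data known. Alternatives were no block, a block of 6 pairs, RLE factors, DESeq2 1.42.0, voom (limma 3.58.1), 2 filters, 6 libraries alone, and leaving out libraries.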

Additional observations from a re-analysis of the deposited data

Results flagged for a closer look

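For Gramd2, a gene of a membrane-contact protein family, all 3 pairs of RORγt-deficient mice and all 3 of wild-type mice moved in opposite directions. It was at 16.9, 18.1 and 14.0 CPM in A5-negative libraries 1 to 3 and 12, 12.9 and 8.24 CPM in the A5-positive ones of RORγt-deficient mice, and at 13.6, 15.7 and 10.8 against 19.7, 19.1 and 13.3 CPM in wild-type mice. The difference of the change, RORγt-deficient minus wild type, was -0.954 ± 0.175 on the log2 scale, with an unadjusted p of 0.000204 in edgeR and an adjusted p of 0.769. For Tnfsf10, the gene of the death ligand TRAIL, the levels were 1.67, 1.89 and 1.71 against 0.513, 1.13 and 0.471 CPM in RORγt-deficient mice and 0.609, 1.24 and 0.600 against 2.29, 2.52 and 1.11 CPM in wild-type mice. Its difference was -2.74 ± 0.51 (unadjusted p = 0.000223, adjusted p = 0.769), again with all pairs of the genotypes in opposite directions. Both genes were looked at because they were among the 5 with the smallest p for the genotype difference. Pairs that all move in opposite directions were seen for 291 of the 16677 genes (1.74%).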

How the results depend on the processing

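Without the replicate block the calls fell from 2937 to 921 (760 higher, 161 lower). Voom called 1908 (667 lower). Leaving out single libraries gave 1073 to 2960 calls, 770 to 1630 higher and 303 to 1330 lower. Leaving out all libraries numbered 1, 2 or 3 gave 1412, 1246 and 730 calls, of which 896, 803 and 631 were higher and 516, 443 and 99 lower. These fits also have fewer residual degrees of freedom. The block of 6 pairs, RLE factors, DESeq2, both filters and the 6 libraries alone stayed within 1.5 times the main count over all genes. The difference between genotypes had 25 calls with DESeq2 and 30 without a filter, and 0 under the other alternatives that fit both genotypes, and the cause was not tested. Signs changed in 4 genes that were not called. Over the fits without single libraries Itga6 ran from -0.0536 to 0.181, Pecam1 from -1.63 to 0.00563, Hif1a from -0.0297 to 0.126 and Ttk from -0.053 to 0.188. Itga6 had -0.0459 and -0.0179 without the libraries numbered 2 and 3, and Hif1a had -0.0157 without those numbered 2. Each fraction had 3 pools, and reads were not counted by molecular identifiers.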

Other observations

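The following groups were picked after their values were seen, and are given as values. Beside their counts, 10.1% of all genes tested rose and 7.54% fell with the block. Of 11 tested Skint genes 8 fell and none rose (2 fell without the block), with a median of -1.0 and pair medians of -0.96, -0.93 and -0.86. Skint4 went from 82.6, 79.9 and 100 to 41.5, 43.5 and 57.7 CPM (-0.89 ± 0.13, adjusted p = 0.0011) and Skint10 from 17.1, 18.8 and 21.5 to 8.52, 6.18 and 9.91 CPM (-1.24 ± 0.26, adjusted p = 0.00935, 0.0928 without the block and 0.0575 without P3). Skint1 had the change nearest to 0, -0.42 ± 0.12 (adjusted p = 0.0339), and its call ended without the block (0.165) and without each library but N2 (0.0533 to 0.129). In wild-type mice 10 of the 11 fell. The number of falls was 4 without N1 and 2 without P3.

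Of 20 tubulin genes 5 rose (4 without the block), led by Tubb5, the tubulin of dividing cells, from 46.6, 35.3 and 53.5 to 187, 83.3 and 176 CPM (1.67 ± 0.17, adjusted p = 0.000134). Tubg1, the gamma-tubulin that nucleates spindle fibres, went from 16.8, 14.9 and 15.8 to 47.9, 22.9 and 34.9 CPM (1.11 ± 0.17, adjusted p = 0.00201). Of the tubulins 3 rose without N1, N3, P1 or P3. Of 26 chemokines 5 rose (3 without the block), among them Ccl2, which draws monocytes, from 35.8, 31.1 and 50.2 to 103, 73.8 and 124 CPM (1.36 ± 0.18, adjusted p = 0.000828). Without P1 or P3, 3 chemokines rose. Of 78 mitochondrial ribosomal protein genes 24 rose with the block and none without it, with pair medians of 0.84, 0.17 and 0.31. Their rises numbered 1, 13, 0 and 1 without N1, N3, P1 and P3 in turn, and 3 with the 6 libraries alone, 11 with voom and 38 with DESeq2. Of 31 keratins 3 rose and 8 fell with the block, and Krt6a alone rose without it. Of the keratins 1 fell without N1 or P3, 4 without P1 and 5 without N2 or N3, and 1 rose without N2, P1 or P3.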
